A study of Mus musculus with 28 samples.

Results

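The 40 genes described here mark the cones and the inner retinal neurons of the mouse: 9 cone genes, 9 bipolar cell genes, 9 amacrine cell genes, 5 horizontal cell genes and 8 ganglion cell genes. They were listed by name, for what they are known to do in these cells, out of 21938 protein-coding genes of the GENCODE M21 annotation on chromosomes 1 to 19, X and Y. The question put to the data was how open the chromatin at these neuronal genes was in Müller cells, a glial cell type, and whether the openness differed between control and db/db mice. At least 1 accessible region was listed at 26 of the 40 genes in control and at 26 in db/db. Over all coding genes 70.5% and 73.9% had one. A promoter region was present at 18 genes in control (45%) and at 17 in db/db (42.5%), against 58.2% and 61.2% of all coding genes. No region in either list was found at 12 genes (30%), against 25.8% of all coding genes. Of the control regions at the 40 genes 3.95% had no overlapping db/db region, against 3.91% at all coding genes.

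Cones detect light with a short-wavelength or middle-wavelength opsin that signals through a cone transducin, a phosphodiesterase and a cyclic nucleotide-gated channel. Bipolar cells carry the photoreceptor signal inwards, horizontal and amacrine cells modify it laterally, mostly by inhibition, and ganglion cells send it to the brain through the optic nerve. Each class is kept by its own transcription factors, such as VSX1 and ISL1 in bipolar cells, TFAP2 factors in amacrine cells, ONECUT factors in horizontal cells and POU4F factors in ganglion cells. Müller glia arise late from the same progenitors as these neurons, and some of the genes, Prkca and Prox1 among them, are also used by cells outside the class they are listed under.

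ATAC-seq, in which a transposase cuts accessible DNA, was measured on Müller cells purified from retinae of 6-month-old mice, with 2 samples per genotype. The control mice carried the label WT and the diabetic mice were homozygous for the db mutation of the leptin receptor gene Lepr on the BKS background. According to the study's methods, wild-type and db/+ mice both served as controls and mice of both sexes were used. Cells were sorted on magnetic columns as the CD29+ fraction after removal of CD11b+ microglia and CD31+ endothelial cells, a fraction said to hold some astrocytes. The paper also states that photoreceptors could not be wholly kept out of this fraction. The samples are called biological replicates, and the labels do not say whether each was pooled from several animals.

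For each genotype 1 peak list was used, attached to its replicate 1, so no value below has a replicate check or a p-value. Overlapping rows of a list were merged to 1 region, which left 46189 regions covering 35.8 Mb in control and 64883 regions covering 46.3 Mb in db/db. The read depth behind the lists is unknown. The labelled cell type was checked on Müller glia markers, and 15 of 15 had a promoter region in both lists. Of the markers of other cells, a promoter region was listed in control and in db/db at 1 of 5 microglia genes, 3 of 5 endothelial genes and 2 of 4 astrocyte genes, and at 13 and 8 of 15 rod phototransduction genes. The rod genes thus differed between the lists, and the part of other cells in the values below was not tested. In such bulk material fewer nuclei of a cell type and less accessible DNA per nucleus cannot be told apart.

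A region was assigned to a gene when it overlapped the gene or 5 kb to either side of it. By this count the 40 genes held 76 regions in control and 110 in db/db. The 26 genes with a region made up 65% of the members in each list, where 70.5% of all coding genes had one in control and 73.9% in db/db. The mean number per gene was 1.90 in control against 1.82 over all coding genes, and 2.75 in db/db against 2.42. Without Prkca, which held the most, the members' means were 1.51 and 2.13, below those of coding genes, and the median was 1 region per gene for members and coding genes alike in both lists. The members were somewhat longer than coding genes, with a median length of 24.9 kb against 17.4 kb.

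**Figure D1:**
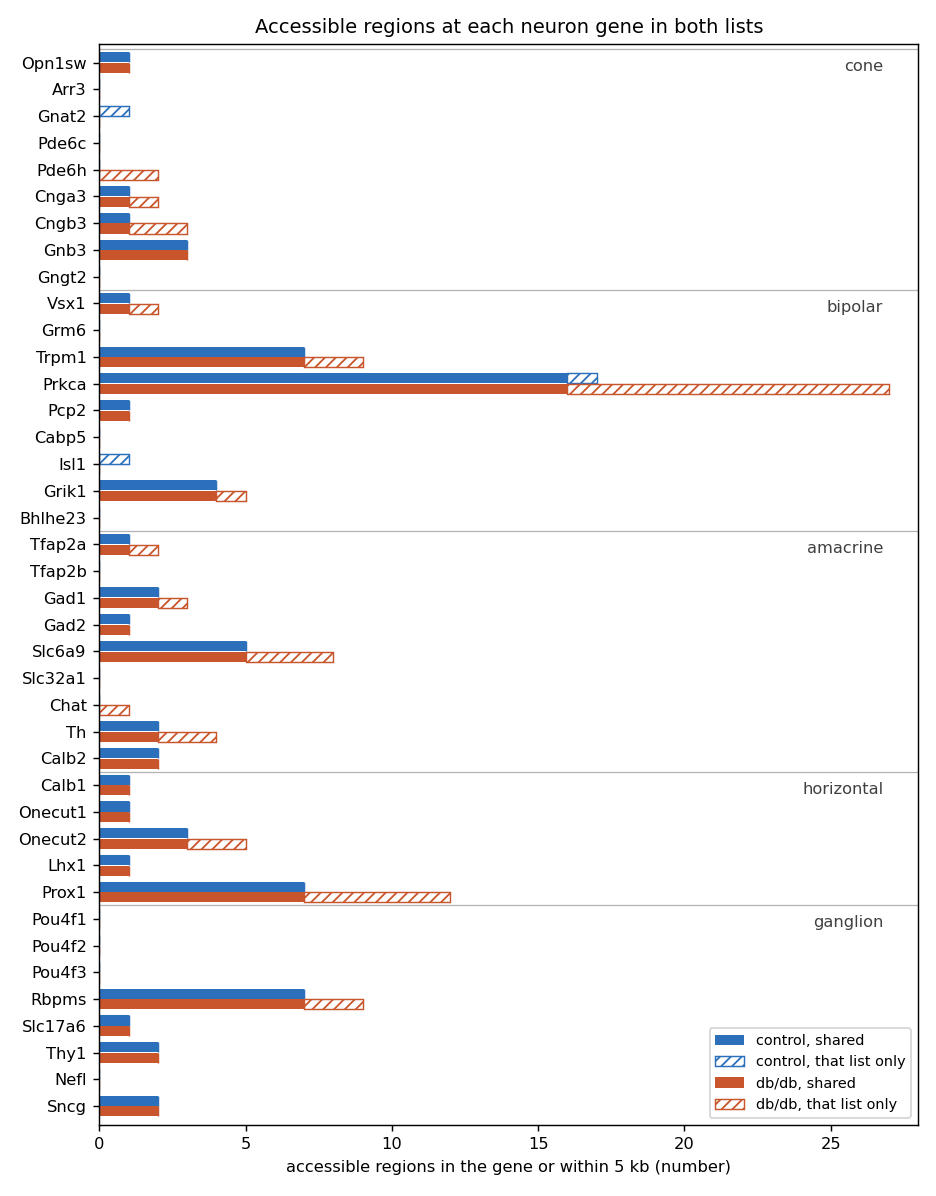
Number of accessible regions in each of the 40 genes or within 5 kb of it (x axis), by gene and cell class, in the control list (blue) and the db/db list (red). Filled bars are regions with an overlapping region in the other list and hatched bars are regions of that list only; Prkca held the most, 17 and 27, and 12 genes had none.

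The regions were unevenly spread over the members. The bipolar genes held 31 of the 76 control regions, and Prkca, which encodes the rod bipolar marker protein kinase C alpha, alone held 17 in control and 27 in db/db over its 410.5 kb. Trpm1, Prox1 and Rbpms followed with 7 control regions each, and with 9, 12 and 9 in db/db. The cone genes had 7 regions in control and 11 in db/db, the amacrine genes 13 and 21, the horizontal genes 13 and 20, and the ganglion genes 12 and 14. Most regions lay in introns, namely 47 of 76 in control (61.8%) and 77 of 110 in db/db (70%), and 19 in each list lay at a promoter. For 63 of the 76 control regions and 87 of the 110 db/db regions the nearest start of a coding gene was that of the member itself. This was the case for all 19 promoter regions of either list. Other regions lay nearer to a neighbour: the only region at Pcp2, a Purkinje and bipolar cell protein gene, was nearest to the start of Xab2, and the only one at Lhx1, a horizontal cell transcription factor gene, was nearest to Aatf.

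The 12 genes without a region in either list were Arr3, Pde6c and Gngt2 of the cones, Grm6, Cabp5 and Bhlhe23 of the bipolar cells, Tfap2b and Slc32a1 of the amacrine cells, and Pou4f1, Pou4f2, Pou4f3 and Nefl of the ganglion cells. They made up 30% of the members, against 25.8% of all coding genes without a region. Among them are genes used as markers of their class, such as cone arrestin (Arr3), the catalytic subunit of the cone phosphodiesterase (Pde6c), the glutamate receptor of ON bipolar cells (Grm6), the vesicular transporter for GABA and glycine (Slc32a1) and all 3 POU4F factors. They were short, with a median length of 7.42 kb, so their windows held less sequence in which a region could fall. A gene missing from a list was not called there, and since the threshold of the lists is not given, a weaker opening at these genes was not detectable.

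A promoter was counted as open when a region overlapped 1 kb to either side of the start of one of the gene's coding transcripts. In control 18 of the 40 genes had an open promoter (45%), against 58.2% of all coding genes. In db/db the number was 17 (42.5%), against 61.2%. Coding genes with the same number of regions as each member would give 21.3 open promoters in control and 21.8 in db/db, both above the number observed. Open in both lists were 16 genes, open in control alone were Gnat2 and Isl1, open in db/db alone was Tfap2a, and 21 were open in neither. Of these 21, 9 genes had regions elsewhere: Pde6h, Cngb3, Pcp2, Grik1, Gad1, Chat, Th, Lhx1 and Sncg.

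**Figure D2:**
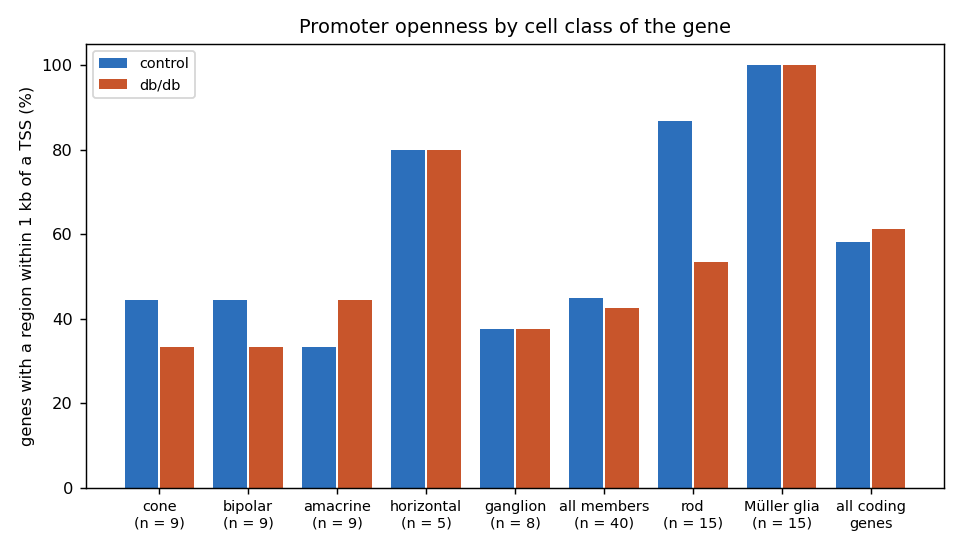
Share of genes (y axis, percent) with a region within 1 kb of a transcription start site (TSS) in the control list (blue) and the db/db list (red), by cell class of the gene, with the number of genes under each class. The members stood at 45% and 42.5%, below all coding genes (58.2% and 61.2%), while the 15 Müller glia genes stood at 100% in both lists and the 15 rod genes at 86.7% and 53.3%.

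By class, the horizontal cell genes were open at 4 of 5 promoters in both lists, all but Lhx1. The other classes were open at fewer promoters: 4 of 9 cone genes in control and 3 in db/db, 4 of 9 bipolar genes and 3, 3 of 9 amacrine genes and 4, and 3 of 8 ganglion genes in both lists. From genes with equal region numbers, 4.99 would be expected for the bipolar genes and 4.99 for the amacrine genes in control, and 4.46 and 5.80 in db/db. The expected numbers in control and db/db were 3.88 and 4.18 for the cone genes, 4.06 and 3.99 for the horizontal genes and 3.41 and 3.40 for the ganglion genes. The 15 Müller glia genes were open at every promoter, and 12.8 would be expected in control from their region numbers. The 15 rod genes were open at 13 promoters in control, against 12.1 expected, and at 8 in db/db, against 11.5.

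The sequences at some of these starts, picked by hand, are printed as examples of base composition at open and closed promoters. RefSeq windows of 300 bases on GRCm38.p6, the build of the peak lists, were given for 28 of the 40 genes. Genes without such a window were Pde6c, Cngb3, Gnb3, Gngt2, Grik1, Calb1, Calb2, Onecut2, Pou4f3, Rbpms, Thy1 and Nefl. Printed first are 4 starts without a region in either list, which are Pou4f1 (chr14:104467950-104468249, minus strand), Bhlhe23 (chr2:180776851-180777150, minus strand), Slc32a1 (chr2:158610508-158610807, plus strand) and Arr3 (chrX:100605247-100605546, plus strand). Then follow 4 starts inside a region of at least 1 list, which are Vsx1 (chr2:150689088-150689387, minus strand), the internal start of Trpm1 (chr7:64185209-64185508, plus strand), Gad2 (chr2:22622077-22622376, plus strand) and Isl1 (chr13:116309639-116309938, minus strand). Each reads 5′ to 3′ along the gene, and capitals mark CG dinucleotides.
Pou4f1: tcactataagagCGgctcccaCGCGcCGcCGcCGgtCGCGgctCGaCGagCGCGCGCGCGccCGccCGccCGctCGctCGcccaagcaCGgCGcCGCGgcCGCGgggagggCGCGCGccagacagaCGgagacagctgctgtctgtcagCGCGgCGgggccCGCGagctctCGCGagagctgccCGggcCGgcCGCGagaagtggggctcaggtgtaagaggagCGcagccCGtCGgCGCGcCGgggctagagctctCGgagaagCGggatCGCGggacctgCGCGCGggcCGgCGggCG
Bhlhe23: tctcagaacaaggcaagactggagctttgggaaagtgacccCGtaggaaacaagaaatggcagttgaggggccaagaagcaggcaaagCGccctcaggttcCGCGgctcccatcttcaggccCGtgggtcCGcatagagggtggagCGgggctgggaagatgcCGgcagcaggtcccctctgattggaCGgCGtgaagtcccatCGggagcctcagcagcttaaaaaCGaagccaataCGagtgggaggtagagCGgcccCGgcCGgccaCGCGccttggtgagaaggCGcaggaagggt
Slc32a1: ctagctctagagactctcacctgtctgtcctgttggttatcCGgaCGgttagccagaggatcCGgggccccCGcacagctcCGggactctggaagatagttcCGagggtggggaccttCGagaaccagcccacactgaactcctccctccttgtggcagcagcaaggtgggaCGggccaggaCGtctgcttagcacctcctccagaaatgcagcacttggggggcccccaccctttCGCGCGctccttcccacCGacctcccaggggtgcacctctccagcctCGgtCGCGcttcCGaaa
Arr3: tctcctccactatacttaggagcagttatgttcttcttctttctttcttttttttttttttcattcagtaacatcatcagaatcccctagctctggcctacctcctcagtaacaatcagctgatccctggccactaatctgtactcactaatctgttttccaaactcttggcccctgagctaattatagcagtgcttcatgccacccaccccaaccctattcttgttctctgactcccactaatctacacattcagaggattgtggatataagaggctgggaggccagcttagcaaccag
Vsx1: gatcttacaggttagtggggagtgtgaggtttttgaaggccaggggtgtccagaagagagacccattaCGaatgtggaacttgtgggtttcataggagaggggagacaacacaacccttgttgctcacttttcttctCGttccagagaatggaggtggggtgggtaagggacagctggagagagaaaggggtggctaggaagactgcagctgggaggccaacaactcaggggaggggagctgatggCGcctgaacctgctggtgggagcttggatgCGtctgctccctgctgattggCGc
Trpm1: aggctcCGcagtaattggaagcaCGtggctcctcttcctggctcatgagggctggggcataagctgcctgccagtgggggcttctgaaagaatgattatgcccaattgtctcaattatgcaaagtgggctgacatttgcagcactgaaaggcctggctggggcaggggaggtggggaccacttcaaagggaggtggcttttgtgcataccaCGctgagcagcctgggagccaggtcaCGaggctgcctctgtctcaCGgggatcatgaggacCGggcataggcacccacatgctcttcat
Gad2: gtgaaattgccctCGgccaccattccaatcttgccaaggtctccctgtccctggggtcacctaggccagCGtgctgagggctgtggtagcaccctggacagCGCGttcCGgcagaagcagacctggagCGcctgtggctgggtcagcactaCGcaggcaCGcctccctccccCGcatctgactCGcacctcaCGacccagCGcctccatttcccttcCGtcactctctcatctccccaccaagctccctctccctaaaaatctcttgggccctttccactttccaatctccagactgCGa
Isl1: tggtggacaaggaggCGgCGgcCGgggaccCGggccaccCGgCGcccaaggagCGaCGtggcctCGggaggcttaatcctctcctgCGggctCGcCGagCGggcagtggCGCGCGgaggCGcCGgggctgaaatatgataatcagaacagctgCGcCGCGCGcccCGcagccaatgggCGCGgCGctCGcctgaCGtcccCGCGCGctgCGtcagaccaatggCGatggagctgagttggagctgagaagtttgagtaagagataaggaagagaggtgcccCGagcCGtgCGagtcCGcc

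Pou4f1, the gene of the ganglion cell factor BRN3A, had 57 CG dinucleotides in this window and a GC content of 78.3%, and it was closed in both lists. The closed starts of Bhlhe23, a bipolar cell factor gene, and Slc32a1 held 19 and 17. Vsx1 and Trpm1 were open in both lists with 5 and 6. Isl1, open in control alone, held 37, Gad2 held 14 and Arr3 none. These 8 starts thus included closed ones with many and open ones with few CG dinucleotides. Being picked by hand, they do not show how CG content and openness went together over the members. The window of Isl1 also held the string GGATTA, read on both strands, which is the core bound by the photoreceptor factors CRX and OTX2 and was present in 7.06% of all 32851 RefSeq windows. The window of Arr3 held TAATTA, a homeodomain core found in 5.29% of them. The E-box CAGCTG, in 16.3% of all windows, was found in those of Pou4f1, Arr3, Vsx1 and Isl1. The window of Gad2 held the E-box CAGATG (17.2% of all windows) and the TFAP2 string GCCNNNGGC (16.6%), and that of Pou4f1 held GGGCGG (35.7%), bound by SP factors. Not found in any of the 8 windows were the VSX string CTAATTAG (0.262%), which overlaps the homeodomain core, the ONECUT string ATTGAT (7.54%), the POU4F string ATTAAT (4.75%) and the REST string TTCAGCACC (0.371%). These are matches of letters and not measured sites.

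Promoters rich in CG dinucleotides are open in most cell types, and this held over all coding genes in the lists. The CpG ratio, which sets the number of CG dinucleotides against that given by the C and G content, was taken from the first 200 bases of each gene's coding transcripts. From the lowest to the highest quintile of coding genes by this ratio, 9.59%, 36.6%, 70.3%, 85.2% and 91.5% had an open promoter in control. The members in these quintiles were open at 3 of 6, 5 of 11, 2 of 6, 5 of 10 and 3 of 7 genes. In db/db the members' counts were 3, 4, 2, 5 and 3. Thus from 2 of 6 to 3 of 6 members were open in every quintile, where coding genes went from mostly closed to mostly open. Coding genes of the same CpG ratios would give 23.7 open promoters in control, where 18 were found, and 25.0 in db/db, where 17 were found. The median ratio was 0.591 for members open in a list, 0.473 for members closed in both and 0.556 for all coding genes.

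Of the members in the upper 2 quintiles, Prkca, Gad2, Calb1, Onecut1, Onecut2, Prox1 and Rbpms were open in both lists, Isl1 in control alone and Tfap2a in db/db alone. Closed in both were Pou4f1, with a ratio of 1.11, Nefl (0.943), Lhx1 (0.875), Slc32a1 (0.854), Bhlhe23 (0.836), Pou4f3 (0.824), Gad1 (0.678) and Tfap2b (0.667). Of these 8 genes, 5 encode transcription factors of inner retinal neurons. At the other end, Gnb3 (0.170), Vsx1 (0.161) and Trpm1 (0.157) were open in both lists with ratios from the lowest quintile, in which 9.59% of coding genes were open in control and 11.7% in db/db. Trpm1 counted as open through its internal start, and no region of either list covered its 5′ RefSeq start. Its ratio is a median over its coding transcripts.

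**Figure D3:**
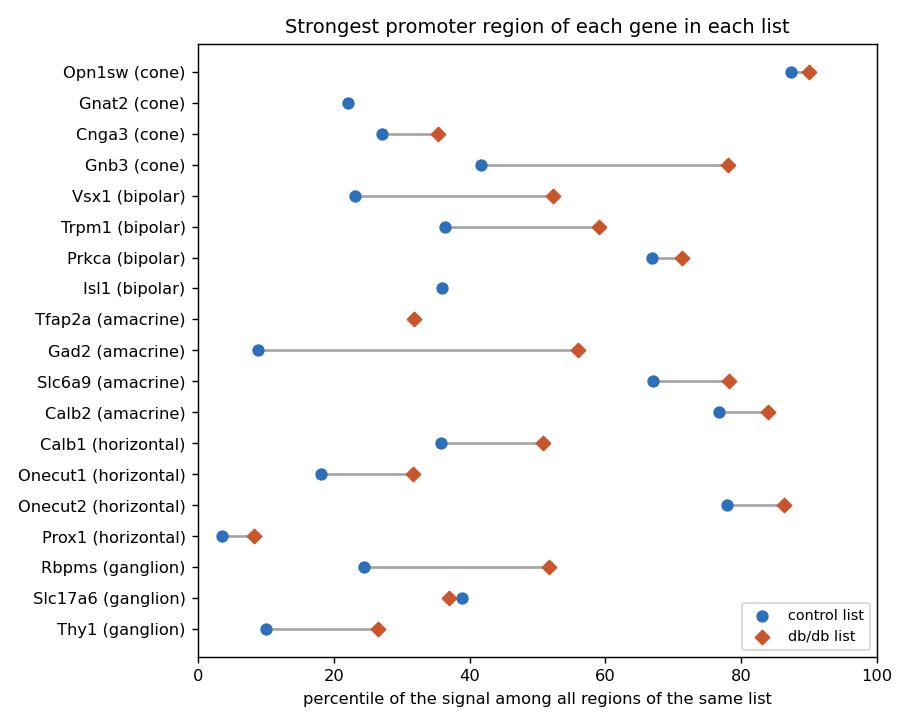
Signal of the strongest promoter region of each of the 19 genes with an open promoter in a list, as a percentile among all regions of the same list (x axis), in control (blue circles) and db/db (red diamonds), with a line joining both. The values lay between 3.57 and 87.3 in control and between 8.15 and 90.0 in db/db, and Gnat2, Isl1 and Tfap2a have 1 point each.

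The strength of a region was read from its deposited signal, a fold enrichment whose scaling is not stated, and was expressed as its percentile among all regions of the same list, from 0 for the weakest to 100 for the strongest. The strongest promoter region of each open member had a median percentile of 35.8 in control and of 52.3 in db/db. The db/db list is longer, and where the added regions are weak the percentile of a region of given strength is raised by construction. Over all 43519 regions that had a single partner in the other list, the median percentile was 8.52 points higher in db/db, and over the promoter regions of all coding genes it was 3.89 points higher.

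Among the cone genes, the opsin gene Opn1sw had the strongest promoter region, with a signal of 17.7 (percentile 87.3) in control and 16.6 (percentile 90.0) in db/db. It lay at the start of a longer annotated transcript, with its summit at −8182 bp from the RefSeq start of Opn1sw, and no region covered the RefSeq start itself. Of the transducin subunits, the alpha subunit gene Gnat2 had 1 region in control, at percentile 22.0, and none in db/db. That region (chr3:108094127-108094657) overlapped the start of an internal transcript and lay 1227 bp past the RefSeq start. The beta subunit gene Gnb3 had a promoter region at percentile 41.7 in control and 78.0 in db/db, with signals of 9.59 and 13.1. Its other regions, 2 in each list, were nearest to the starts of its neighbours Usp5 and Cdca3. The gamma subunit gene Gngt2 had none.

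Of the cone channel genes, Cnga3 had a promoter region at percentile 27.1 in control and 35.4 in db/db, and an intronic region (chr1:37250709-37251137) in db/db alone, at percentile 47.5. Cngb3, which encodes the beta subunit of the channel, had no promoter region. It had 1 shared intronic region at percentile 25.2 in control and 49.8 in db/db, and 2 more regions beside it in db/db alone. The phosphodiesterase gene Pde6h, which encodes the inhibitory subunit, had regions in db/db alone, at percentiles 11.9 and 16.8, and the first of these was nearest to the start of Erp27.

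The bipolar genes held the most regions. Vsx1, a transcription factor gene of bipolar cells, had a promoter region at percentile 23.1 in control and 52.3 in db/db. Isl1, a factor gene of ON bipolar, cholinergic amacrine and ganglion cells, had 1 region, at its promoter (chr13:116309368-116310249), with a signal of 8.92 at percentile 35.9 of the control list and a −log10 p of 91.4. No db/db region overlapped it, and no other region lay at the gene in either list. The start printed above lay inside this region.

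Trpm1, the cation channel gene downstream of the ON bipolar glutamate receptor, had 7 regions in control, each with a partner among its 9 in db/db. The strongest in db/db lay about 2 kb inside the gene (chr7:64155633-64156856), at percentile 48.1 in control and 86.3 in db/db, with signals of 10.4 and 15.3. The next (chr7:64164965-64165485) was at percentiles 47.9 and 84.1, with signals of 10.3 and 14.6. The region at the internal start printed above was at percentiles 36.3 and 59.1. All 7 shared regions were at higher percentiles in db/db, but so were 84.3% of single-partner regions at coding genes. When single-partner regions alone were ranked, 5 of these 7 stood higher in db/db.

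Prkca had 16 shared regions. Its promoter region was at percentile 66.9 in control and 71.3 in db/db, and the strongest of its control regions (chr11:108136193-108137095) was at percentiles 80.5 and 81.2. Grik1, which encodes a kainate receptor subunit of OFF bipolar cells, had 4 regions in control and 5 in db/db over 394.4 kb, none of them at a promoter. The strongest of these was at percentile 70.5 in control and 83.1 in db/db. The Pcp2 region near Xab2 was among the strongest at any member, at percentiles 86.0 and 95.2.

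**Figure D4:**
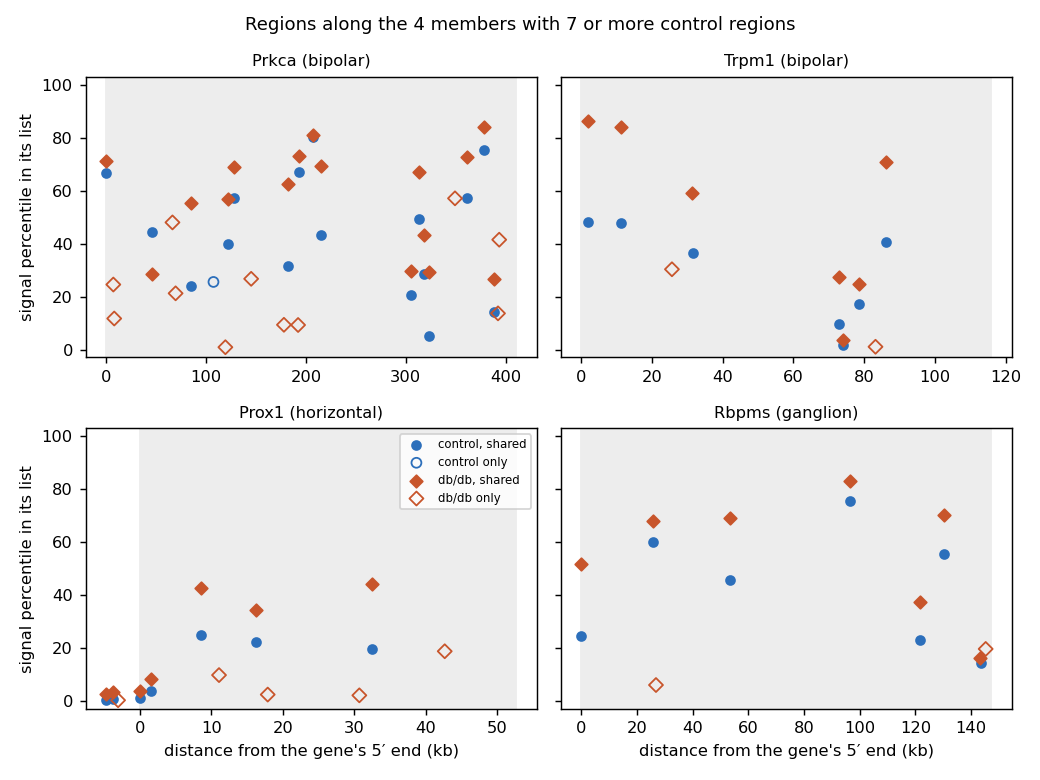
Signal percentile within its list (y axis) of every region along Prkca, Trpm1, Prox1 and Rbpms, against the distance of its summit from the 5′ end of the gene in kb (x axis), with the gene body in grey. Blue circles are control and red diamonds db/db regions, open symbols are regions of 1 list only; of the 11 db/db-only regions of Prkca, the highest stood at percentile 57.2, below its strongest shared regions.

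Among the amacrine genes, Tfap2a had an intronic region at percentile 83.3 in control and 84.8 in db/db, and a promoter region (chr13:40733787-40734120) in db/db alone, at percentile 31.9. Gad1 and Gad2 encode the enzymes that make GABA. Gad2 had 1 region, at its promoter, with a signal of 5.71 at percentile 8.85 in control and of 9.34 at percentile 56.0 in db/db. Gad1 had no promoter region, and its strongest region was at percentile 75.3 in control and 75.4 in db/db. Slc6a9, the glycine transporter gene GlyT1, had most regions of the class, 5 in control and 8 in db/db, with its strongest promoter region at percentiles 67.0 and 78.3. In the brain this transporter is found on glia as well as neurons.

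Calb2 (calretinin) had the strongest amacrine promoter region, at percentile 76.7 in control and 84.0 in db/db. Th, for dopamine synthesis, had 2 regions in control and 4 in db/db, none at a promoter. Chat, for acetylcholine synthesis, had 1 intronic region (chr14:32428948-32429792) in db/db alone, at percentile 41.7. The transmitter genes of this class thus ranged from no region at all (Slc32a1) to 8.

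Of the horizontal cell genes, Onecut2 had the strongest promoter region, at percentile 78.0 in control and 86.3 in db/db. Onecut1 had 1 region, at its promoter, at percentiles 18.1 and 31.7, and Calb1 (calbindin) likewise had 1, at percentiles 35.8 and 50.9. Prox1 had most regions, 7 in control and 12 in db/db, and the stronger of its pair of promoter regions, at percentile 3.57 in control and 8.15 in db/db, was the weakest in each list when every open member was taken by its strongest promoter region. By −log10 p the same region stood at percentiles 52.5 and 63.0, so it ranked far higher by significance than by fold enrichment. The order of members by strength thus depends on which deposited column is ranked.

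Among the ganglion cell genes, Rbpms, an RNA-binding protein gene, held 7 control regions, all shared, and its promoter region was at percentile 24.4 in control and 51.7 in db/db. Slc17a6, the vesicular glutamate transporter gene VGLUT2, had the strongest promoter region of the class in control, at percentile 38.8, and stood at 37.0 in db/db. Thy1 had a promoter region at percentiles 10.0 and 26.6 and a stronger upstream region at percentiles 48.6 and 64.1. Sncg, for gamma-synuclein, had an intronic region and an upstream region nearest to Mmrn2. With the POU4F factors and the neurofilament gene Nefl without regions, the ganglion class had the largest share of genes absent from both lists, 4 of 8.

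Regions of 1 list only were then counted. In control, 3 of the 76 member regions had no overlapping db/db region, a share of 3.95% (95% Wilson interval 1.35% to 11.0%, counting error only), against 3.91% of all control regions at coding genes. From genes with equal region numbers 3.07 such regions would be expected. The 3 regions were those of Gnat2 and Isl1 described above and an intronic region of Prkca (chr11:108236251-108236581) at percentile 25.6. The share at the members was thus that of coding genes in general.

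The rod genes differed on this count. Among 45 control regions there, 19 had no db/db partner (42.2%, 29.0% to 56.7%), where 1.88 would be expected from equal region numbers. The Müller glia genes had none among 47, which allows up to 7.56% by the upper Wilson bound. At the cone genes, which are used by the other photoreceptor type, 1 of 7 control regions lacked a partner (14.3%, 2.57% to 51.3%), and at the bipolar genes 2 of 31. All 13 amacrine, 13 horizontal and 12 ganglion control regions had a partner, with upper Wilson bounds of 22.8%, 22.8% and 24.2% for regions without one. The interval of the cone share was wide and took in both the rod share and that of coding genes, so 7 regions could not place the cone genes with either.

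In db/db, 37 of the 110 member regions had no overlapping control region (33.6%, 25.5% to 42.9%), against 29.1% of all db/db regions at coding genes, and 33.6 would be expected from equal region numbers. Prkca held 11 of the 37. By class the numbers were 5 of 11 for cone, 15 of 44 for bipolar, 8 of 21 for amacrine, 7 of 20 for horizontal and 2 of 14 for ganglion genes, with 2.24, 15.4, 5.54, 6.53 and 3.85 expected. The cone and amacrine genes were above and the ganglion genes below the expected number, by about 2 to 3 regions each.

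These added regions were weak. Their median percentile was 19.6, against 56.0 for the shared db/db regions of the members, and the median over db/db-only regions at coding genes was 21.2. The 5 highest were 3 intronic Prkca regions, at percentiles 57.2 (chr11:107994521-107994820), 48.1 (chr11:108277061-108277691) and 41.5 (chr11:107949765-107950790), and those of Cnga3 and Chat given above. When both lists were cut to 46189 regions by −log10 p, 8 of 72 db/db regions (11.1%) and 12 of 76 control regions (15.8%) were without a partner. Over coding genes these shares were 11.6% and 12.1%. At equal length the split towards db/db-only regions was thus not seen, but this cut removes the weaker db/db regions by construction. Whether the split goes beyond the greater length of the db/db list was not tested. With equal lists, Cnga3, Tfap2a, Onecut1 and Slc17a6 also had no db/db promoter region, which left 13 open promoters (32.5%) against 58.1% of coding genes.

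Last, the ranks of the shared regions were compared. Of 73 member regions with a single partner, 68 had a higher percentile in db/db (93.2%), against 84.3% of such regions at coding genes, with a median difference of 12.6 points. Much of this goes with the longer db/db list. When the percentile was taken among single-partner regions alone, 43 of the 73 were higher in db/db, against 49.3% at coding genes. The median difference was then 0.41 points, against 0.09 over all such regions, whose single values had an SD of 10.6. Single regions of the members ranged from −28.5 to 33.9 points on that scale.

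**Figure D5:**
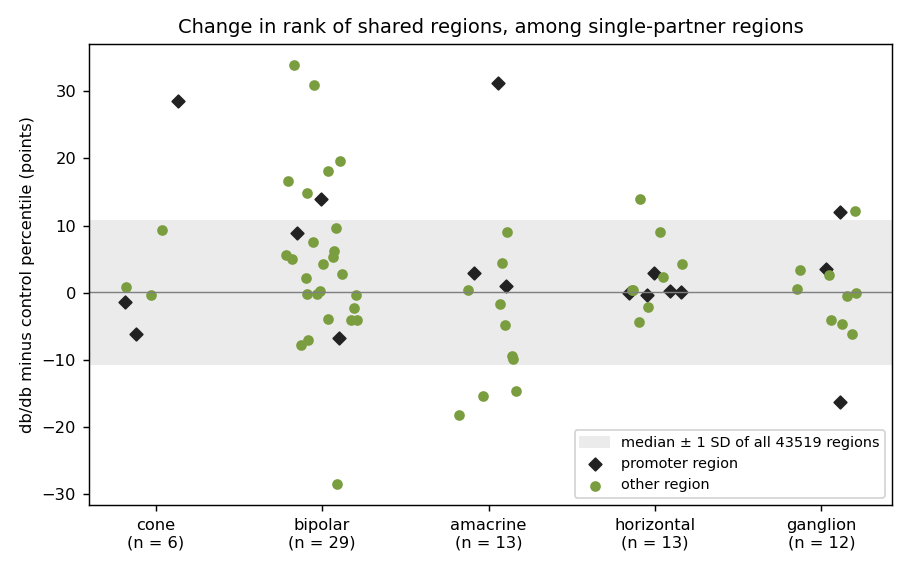
Difference between the db/db and the control percentile (y axis, points) of each of the 73 shared regions of the members, ranked among the 43519 single-partner regions, by cell class. Black diamonds are promoter regions, green circles are other regions, and the grey band is the median ± 1 SD of all single-partner regions; most points lie in the band, with Trpm1, Gad2 and Gnb3 regions highest and a Prkca region lowest at −28.5.

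By class, the median difference on this scale was 4.23 points at the bipolar genes (n = 29 regions), 0.26 at the cone genes (n = 6), −1.72 at the amacrine genes (n = 13), 0.37 at the horizontal genes (n = 13) and 0.29 at the ganglion genes (n = 12). How far such class medians scatter between replicates is not known. Ranked among all regions of a list, the 5 regions that stood furthest higher in db/db were the Gad2 promoter (47.1 points), the pair of Trpm1 regions near its 5′ end (38.2 and 36.2), the Gnb3 promoter (36.3) and a Prkca intron region (31.4, chr11:108258734-108259817). At the other end stood a Prkca intron region (chr11:108298005-108298474), which was 16.2 points lower in db/db, from percentile 44.6 to 28.4. After it came regions at Slc6a9 (−3.81), Calb2 (−2.82), Slc17a6 (−1.83) and Lhx1 (−1.24). Among single-partner regions alone, the Gad2 promoter stood 31.3 points higher in db/db, the Trpm1 pair 33.9 and 30.9 and the Gnb3 promoter 28.5. On the same scale the regions at Prkca (−28.5), Calb2 (−18.1), Slc17a6 (−16.3), Slc6a9 (−15.3) and Th (−14.6) stood lowest, and that at Lhx1 was at −4.31. Th was chosen for mention after its value had been seen.

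Since the difference in rank depends on the rank in control, the promoter regions were also set beside coding promoter regions within 5 percentile points of them in control. The difference at the Gad2 promoter was larger than that at 99.9% of 738 such regions, whose median was 11.3 points (SD 9.12). At the Gnb3 promoter it was larger than at 99.4% of 829. Both thus stood near the top of promoter regions of like rank in control. They were named for having the largest differences among the members' 17 shared promoter regions, and that choice favours a high place. For the promoters of Vsx1, Rbpms and Trpm1 the share with a smaller difference was 88.5%, 86.4% and 80.8%, and for that of Slc17a6 it was 5.68%. For the other shared promoter regions this share lay between 23.6% and 79.1%. These are places in 1 pair of lists, and how far replicates would scatter is not known.

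Of the 5 members with at least 5 shared regions, Trpm1 had the highest median difference, and picking it for this favours a high place. Among single-partner regions alone, its 7 shared regions had a median difference of 8.86 points, 5 of them higher in db/db, and this median was above that of 97.8% of the 1611 coding genes with at least 5 such regions. Prkca, with a median of 1.25 points over 16 regions, stood above 61.5% of these genes, Rbpms above 51.5%, Prox1 above 48.0% and Slc6a9 above 20.7%. The other members had fewer than 5 shared regions and were not ranked in this way.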

How the data were processed

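ATAC-seq was measured in purified Müller cells of control and db/db mice, 2 samples per genotype, and 1 peak list per genotype was used. The second ATAC-seq samples, the RNA-seq samples and the reads were not analysed here. Each deposited row holds the authors' score (540 to 1000 in both lists) and their signal, a ratio over background. The authors also deposited the −log10 of a p-value and of a q-value for each row. The labels give mm10. The peak caller, its threshold and any pooling of replicates are not given in the sources used here. The methods name csaw and monaLisa for later steps. Values were compared by rank within a list, since no common scale is stated, and the depth is unknown.

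Tables were computed in Python 3.11.15 using pandas 2.3.3, numpy 2.4.6 and scipy 1.17.1. Plots used matplotlib 3.10.9. Overlapping rows were merged to 1 region with the signal and summit of the row of highest signal. The −log10 p and −log10 q of a region were the highest among its rows. Genes and starts came from GENCODE M21 (GRCm38). Regions were shared from an overlap of 1 bp. Wilson intervals of 95% cover counting error only. Expected numbers are means over all other coding genes with the same number of regions in that list, and no draw was made. Where fewer than 50 genes had that number, the range was widened by 1 to each side until it held 50. With 1 list per genotype there was no test. Merging, sharing and expected numbers were checked on simulated data.

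The members and lists were chosen with earlier results of these data known. The plan named with values the members without a region or with a control-only region. Per class it named the member with most regions and the strongest promoter. It also named the 5 shared regions standing furthest higher and lower in db/db, and the 5 strongest db/db-only regions. Other members were to be given by class, but values outside this plan, such as those of Vsx1, Cngb3 and Thy1, were given as well. Sequences came from RefSeq windows, which covered 70% of the members, so the planned comparisons of window composition and of motif shares over the list were void. The CpG ratio of the first 200 transcript bases, known for all 40, replaced the former after the data had been seen.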

Additional observations from a re-analysis of the deposited data

How the results depend on the processing

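No paired analysis was possible because 1 peak list per genotype was used and no test was run, and for the same reason no replicate could be left out. Of 68 values recomputed under another setting, 61 stayed close to the reported ones. For counts, close meant within a factor of 1.5. For shares, percentiles and differences it meant inside the 95% interval of the reported value. By this rule the number of open db/db promoters, 17 against 13 with lists of equal numbers, counted as close. With lists of equal numbers of regions, the control-only share was 15.8%, the db/db-only share 11.1%, the db/db regions at the members 72 and the median difference in percentile 0.14 points, where all regions stood at −0.89. By construction this setting removes the weaker db/db regions. Counting every deposited row in place of merged regions gave 133 control and 179 db/db rows. Ranking among single-partner regions, an alternative added after the data had been seen, gave a median difference of 0.41 points. The other settings were other widths of gene and promoter windows, a −log10 q of at least 5, autosomes alone and an overlap of 50%. Ranks by −log10 p, nearest starts and leaving out Prkca were used as well. Every region at the members had a −log10 q above 5 and lay on an autosome, so neither of those settings could change the members' counts. Each setting was run on those of the region numbers, promoter counts, percentiles, differences and shares over all members that it bears on. By the rule above these values stayed close, but with 20 kb to each side the region numbers rose to 109 and 151. Ranked by −log10 p, the median promoter percentile was 34.1 in control and 62.6 in db/db. Class values and CpG ratios were not recomputed under these settings. Without Prkca the control-only share was 3.39%, the db/db-only share 31.3% and the region numbers 59 and 83. For region numbers, promoter counts and promoter percentiles, leaving out Prkca was added after the data had been seen. Neither replicate spread nor read depth could be read from the lists, so differences of a few regions or a few percentile points between genotypes were not resolved.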
